A study of Rattus norvegicus with 2 samples.

Results

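The granule proteases and the genes of histamine synthesis and storage were examined in RBL-2H3, a rat basophilic leukaemia line used as a mast cell model. They are 9 gene symbols, the carboxypeptidase Cpa3, the tryptases Tpsab1 and Tpsb2, the chymase family members Mcpt2, Mcpt8, Mcpt8l2 and Mcpt8l3, the histidine decarboxylase Hdc and the vesicular monoamine transporter Slc18a2. Members were found by their symbol in the transcript table and their transcripts were summed. Of the 9, 5 had a row among 15409 symbols; Tpsab1, Tpsb2, Mcpt2 and Mcpt8 had none under these symbols, which does not show that they were not expressed. The treated library came from cells given PM2.5, fine particulate matter, together with IgE and DNP-HSA, an IgE antibody and the haptenated protein that crosslinks it on the high-affinity receptor. The saline library came from the same line given normal saline. The labels give neither a dose unit nor a time, and leave it unsaid whether the saline cells saw IgE and antigen. Each group is 1 library, so no difference below has a replicate check, PM2.5 and receptor crosslinking cannot be told apart, and no test between conditions was possible.

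Mast cells and basophils pack their secretory granules with serine proteases, carboxypeptidase and amines held on the proteoglycan serglycin, and release them when the IgE receptor is crosslinked. Histamine is made in the cytosol by histidine decarboxylase in a single step from histidine. The vesicular transporter encoded by Slc18a2 then carries it into granules in exchange for protons. Chymases and granzymes are made as inactive precursors, and cathepsin C removes a short peptide from their ends to activate them.

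The Mcpt8 copies lie near each other on chromosome 15, and the sources used here do not say how reads that match several copies were assigned. Their upstream sequences are shown because they let the likeness of the copies be seen. The stretches are 158 bases each from RefSeq, build GRCr8, all on the plus strand and all before the outermost annotated transcript start, at chr15:33673082-33673239 for Mcpt8l3, chr15:33718231-33718388 for Mcpt8l2 and chr15:33769417-33769574 for Mcpt8. Capitals mark the 9 positions at which the copies differ.
Mcpt8l3: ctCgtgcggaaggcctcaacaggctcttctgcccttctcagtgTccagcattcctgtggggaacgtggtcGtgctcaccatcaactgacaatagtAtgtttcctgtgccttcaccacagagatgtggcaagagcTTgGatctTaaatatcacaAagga
Mcpt8l2: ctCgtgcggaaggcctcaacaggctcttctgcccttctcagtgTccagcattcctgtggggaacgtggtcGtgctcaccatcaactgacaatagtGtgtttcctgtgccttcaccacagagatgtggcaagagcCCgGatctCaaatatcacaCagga
Mcpt8: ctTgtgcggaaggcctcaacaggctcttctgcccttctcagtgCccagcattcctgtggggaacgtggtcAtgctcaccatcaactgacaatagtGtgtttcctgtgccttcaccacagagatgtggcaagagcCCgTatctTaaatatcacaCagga
The other 149 positions carry the same base in all 3 copies. Mcpt8l3 and Mcpt8l2 were identical at 96.8% of the positions, as were Mcpt8l2 and Mcpt8, and Mcpt8l3 and Mcpt8 at 94.9%. The transcripts of the copies were not compared here.

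Values below are normalised counts, that is read counts divided by a size factor of the library, as the authors scaled them. One read was worth 1.65 on this scale for the treated library and 0.867 for the saline library. The treated library held 3964955 reads and the saline library 7279671, 1.84 times the depth of the treated one. Folds are log2 values, treated over saline, of the normalised count plus 1. Intervals are exact 95% intervals, from read counts and without the added 1 for ratios, and cover counting error only. By a rule of size, a symbol counted as different when these folds reached 2-fold either way and 1 of its normalised counts or both reached 1.

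The listed members did not move in one direction. Of the 5, the size rule took 1 as higher in treated cells (Cpa3), where it took 11.9% of all symbols, and 2 as lower (Hdc and Mcpt8l3), where it took 18.7% of all symbols. These are counts over 5 genes, and nothing particular to the group is read from them. Their median log2 fold was -0.31, beside a median of -0.099 over all symbols. When both ends of the exact interval had to lie beyond 2-fold, 1 member was higher (Cpa3), where 2.62% of all symbols were, and 1 was lower (Mcpt8l3), where 3.42% were.

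Cpa3 (ENSRNOG00000011181), the mast cell carboxypeptidase that trims C-terminal residues from peptides, had a normalised count of 509 in treated cells (308 reads, interval 453 to 569), against 152 in saline cells (175 reads, interval 130 to 176). The counting intervals of the 2 libraries did not overlap, and the treated library was the higher. The log2 fold was 1.74, with an interval of the ratio of 1.47 to 2.02. Among 9041 symbols whose mean normalised count reached 50, 1.03% had a higher log2 fold. All reads of Cpa3 were on a single listed transcript.

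Mcpt8l2 (ENSRNOG00000049096), a granule serine protease of the Mcpt8 family, had a normalised count of 16.5 in treated cells (10 reads, interval 7.92 to 30.4), against 14.7 in saline cells (17 reads, interval 8.59 to 23.6). The saline interval lies within the treated one. Its log2 fold was 0.15 and the interval of the ratio ran from -1.13 to 1.37, so that a difference in either direction was not detectable at this depth.

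Mcpt8l3 (ENSRNOG00000049991), a further copy of the same family, had no reads in treated cells, where the interval reaches a normalised count of 6.09, against 21.7 in saline cells (25 reads, interval 14.0 to 32.0). Set against 3 treated reads, a normalised count of 4.95 that serves as the floor for a count of 0, it was at least 4.38-fold lower in treated cells. The exact interval of the log2 ratio ends at -1.72, so the reads also allow a smaller difference than that bound. The saline reads were spread over 5 listed transcripts with 12, 9, 2, 1 and 1 reads, and each of the 5 had 0 reads in treated cells.

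A sum over the copies does not depend on how reads were split between the rows summed. Mcpt8l2 and Mcpt8l3 together had a normalised count of 16.5 in treated cells (10 reads), against 36.4 in saline cells (42 reads). The log2 fold of the sum was -1.10 and the interval of the ratio was -2.30 to -0.12. The sum was therefore lower in treated cells by more than counting error, while its size was not settled to within 2-fold; with a pseudocount of 5 the log2 fold of the sum was -0.95, short of the size rule.

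Hdc (ENSRNOG00000010262), the sole enzyme that makes histamine, had a normalised count of 1178 in treated cells (713 reads, interval 1093 to 1267), against 2473 in saline cells (2851 reads, interval 2383 to 2565). The treated library was the lower and the counting intervals did not overlap. The log2 fold was -1.07 and the interval of the ratio, -1.19 to -0.95, includes the 2-fold limit. Of the 9041 symbols with a mean of at least 50, 6.19% had a lower log2 fold.

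Slc18a2 (ENSRNOG00000008890), the transporter that loads amines into granules, had a normalised count of 1361 in treated cells (824 reads, interval 1270 to 1457), against 1684 in saline cells (1942 reads, interval 1610 to 1761). It was lower in treated cells by more than counting error but within 2-fold, at a log2 fold of -0.31 (interval -0.43 to -0.19). Among the covered symbols 33.8% had a lower log2 fold. The intervals of Hdc and Slc18a2 did not overlap, so the synthesis gene differed more than the storage gene between these 2 libraries.

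**Figure D1:**
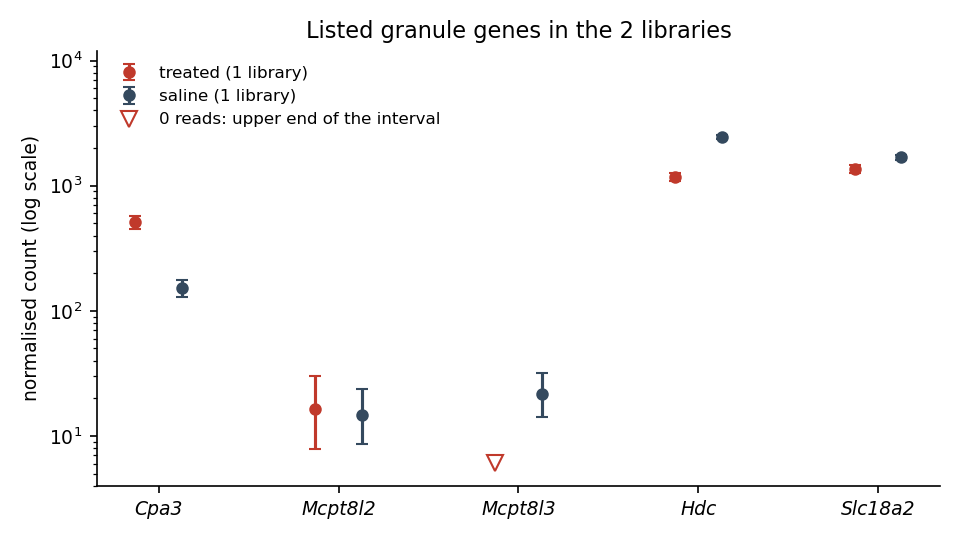
Normalised count (log scale) of the 5 listed members in the treated (red) and the saline (dark) library, with exact 95% counting intervals; the open triangle is the upper end for Mcpt8l3, which had 0 treated reads. Cpa3 was higher in treated cells at 509 against 152, Hdc lower at 1178 against 2473, and the 2 points of Mcpt8l2 lie within each other's intervals.

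**Figure D2:**
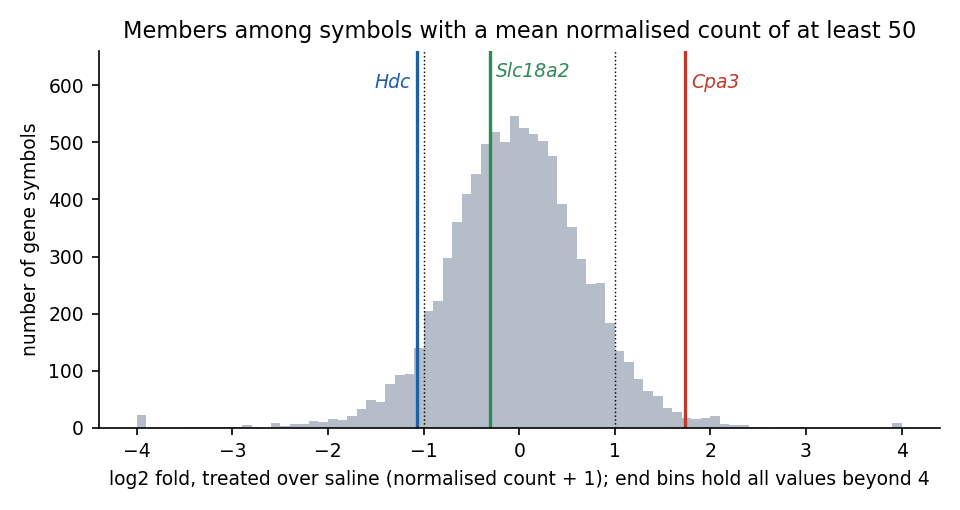
Number of gene symbols by log2 fold, treated over saline, for the 9041 symbols whose mean normalised count reached 50; dotted lines mark 2-fold and the end bins hold all values beyond the axis. Cpa3 at 1.74 stands in the upper tail, Hdc at -1.07 just past the lower 2-fold line and Slc18a2 at -0.31 within the bulk.

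The lower value of Hdc lay on 1 of its 2 listed transcripts. ENSRNOT00000041569 had a normalised count of 1083 in treated cells (656 reads), against 2392 in saline cells (2758 reads), a log2 fold of -1.14 (interval -1.27 to -1.02). ENSRNOT00000086724 had 94.1 in treated cells (57 reads), against 80.7 in saline cells (93 reads), a log2 fold of 0.22 (interval -0.28 to 0.71). The 2 intervals did not overlap. The second transcript held 7.99% of the Hdc reads in treated cells (exact interval 6.11 to 10.2%), against 3.26% in saline cells (2.64 to 3.98%). The sources used here do not say how reads of exons shared by both transcripts were assigned.

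**Figure D3:**
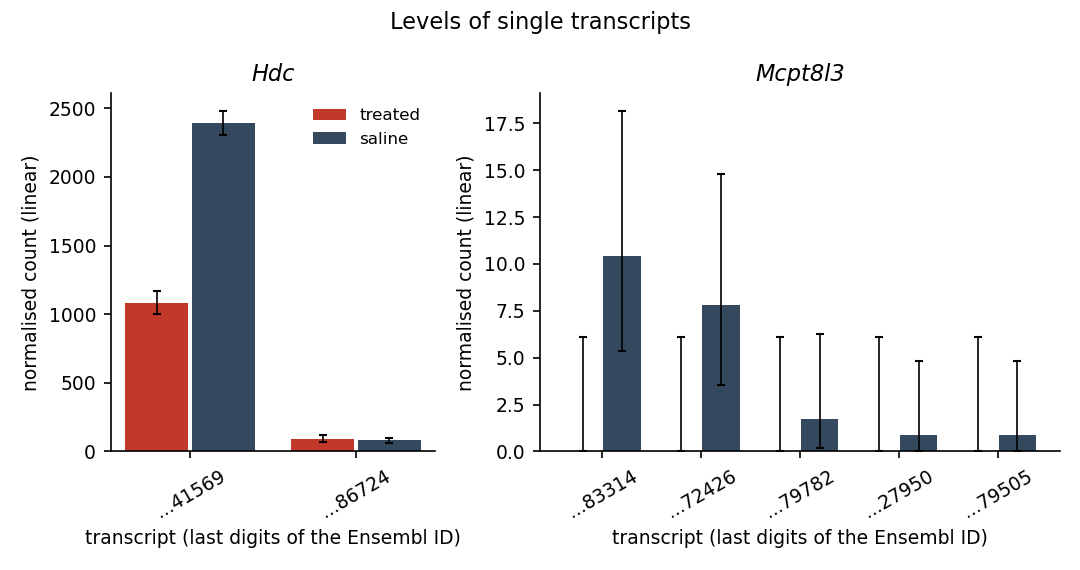
Normalised count (linear) of each listed transcript of Hdc (left) and Mcpt8l3 (right) in the treated (red) and saline (dark) library, with exact 95% counting intervals. For Hdc the first transcript stands at 1083 against 2392 and the second at 94.1 against 80.7; all 5 transcripts of Mcpt8l3 are at 0 in treated cells.

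In the authors' deposited table none of the 10 member transcripts was among the 57 that the authors selected. The authors' deposited table lists a p-value of 0.0783 for the transcript of Cpa3 and of 0.093 for the first Hdc transcript, with an adjusted value of 0.92 for both. The lowest p-value anywhere in the authors' deposited table is 0.0345 and the lowest adjusted value is 0.92. The submitters' processing notes list DESeq with no role. The sources used here do not say which program or measure of spread gave these values from 1 library a group.

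Cpa3 and Hdc were the 2 members with reads in both libraries that passed the size rule, in opposite directions, and their upstream sequences are given for that reason, from RefSeq, build GRCr8. Both are on the minus strand, Cpa3 at chr2:104673254-104673487 and Hdc at chr3:134318705-134318954. Capitals mark GATA or its reverse complement TATC, the core bound by the mast cell factor GATA2, and TATAAA, the TATA box.
Cpa3: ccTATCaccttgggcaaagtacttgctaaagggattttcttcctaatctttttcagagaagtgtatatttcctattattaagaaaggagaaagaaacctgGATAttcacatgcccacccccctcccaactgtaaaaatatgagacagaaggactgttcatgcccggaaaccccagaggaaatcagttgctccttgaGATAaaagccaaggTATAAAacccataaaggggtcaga
Hdc: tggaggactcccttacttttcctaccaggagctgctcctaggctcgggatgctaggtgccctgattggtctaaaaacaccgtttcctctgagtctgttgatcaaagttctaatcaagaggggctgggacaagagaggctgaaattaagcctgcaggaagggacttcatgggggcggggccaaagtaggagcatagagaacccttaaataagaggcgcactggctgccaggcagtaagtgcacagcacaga
The sequence of Cpa3 holds GATA at 54 and 150 bases and TATC at 248 bases before the transcript start used by the promoter table, and TATAAA 40 bases before it. None of these letters occurs in the window of Hdc. Of 33469 rat promoter windows of 300 bases, 60.5% hold GATA on either strand and 14.2% hold TATAAA on either strand. Windows were found for 8 of the 9 members, of which 6 held GATA (Cpa3, Slc18a2, Tpsab1, Mcpt8, Mcpt8l2 and Mcpt8l3) and 1 held TATAAA (Cpa3). AGATAA, which contains GATA, occurred in Cpa3 and in 11.6% of all windows, and TGATAA, which also contains it, in no member and in 9.03% of all. CACATG, an E-box bound by MITF among others, occurred in Cpa3 and Tpsb2 and in 14.0% of all windows. TGACGTCA, the cyclic AMP response element, occurred in Slc18a2 and in 1.83% of all windows. Both strands were searched for each, and a match is only a match of letters.

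The remaining genes of the granule protease family were mostly without a row. Of 36 such symbols 6 were listed, with a median log2 fold of 0.48, beside -0.099 over all symbols. The size rule took 3 of the 6 as higher in treated cells, beside 11.9% of all symbols, and 2 as lower, beside 18.7%. For 4 of these 5 (Gzmb, Gzmm, Mcpt3 and Prss27) 1 library had no reads. Mcpt3 and Prss27 differed from the floor of 3 reads by under 2-fold. Gzmm had 2 reads in saline cells, a normalised count of 1.73, which is below the treated floor of 4.95. Mcpt1, a mast cell chymase of the rat, had a normalised count of 249 in treated cells (151 reads), against 115 in saline cells (133 reads). Its log2 fold was 1.11 (interval 0.77 to 1.46). RefSeq carries rMCP-2 among the synonyms of Mcpt1, so reads of Mcpt2 may be held in that row.

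The transcripts of Mcpt1 went opposite ways. ENSRNOT00000091757 had a normalised count of 230 in treated cells (139 reads), against 68.5 in saline cells (79 reads), a log2 fold of 1.73 (interval 1.34 to 2.16). ENSRNOT00000027988 had 18.2 in treated cells (11 reads), against 46.8 in saline cells (54 reads), a log2 fold of -1.32 (interval -2.45 to -0.41). A further transcript had 1 read in treated cells and 0 in saline cells. Near-identical neighbours may share these reads too.

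Gzmb, the cytotoxic serine protease granzyme B, had 10 reads in treated cells and 0 in saline cells, and against 3 saline reads it was at least 6.35-fold higher in treated cells; the exact interval of its log2 ratio begins at 2.09, which allows a smaller difference. Cma1, an alpha-chymase, had 8 reads in treated cells and 17 in saline cells, a log2 fold of -0.15 (interval -1.58 to 1.13). Mcpt3 had 0 reads in treated cells and 8 in saline cells. The exact interval of its log2 ratio ends at 0.16, so that a difference was not detectable at this depth.

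These proteases and the Mcpt8 copies sit in 1 locus of chromosome 15. Between Cma1 and Gzmb RefSeq lists 29 protein-coding genes and 17 pseudogenes, and 6 of the protein-coding genes had a row by symbol. Together these 6 had a normalised count of 296 in treated cells (179 reads), against 173 in saline cells (200 reads), a log2 fold of 0.77 (interval 0.47 to 1.07). Most of the sum was Mcpt1, and the genes within it did not share a direction.

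**Figure D4:**
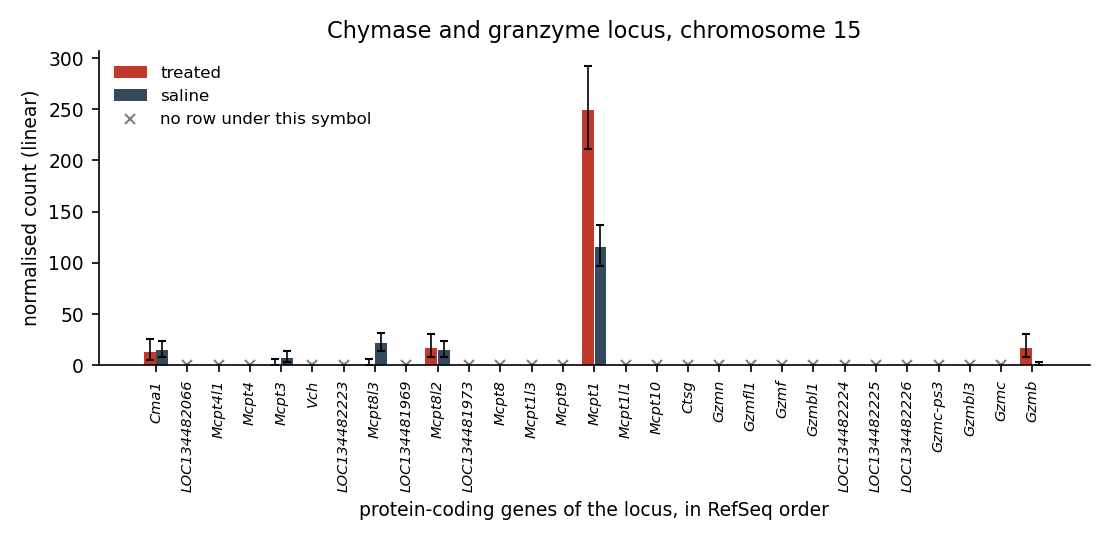
Normalised count (linear) of the 29 protein-coding genes from Cma1 to Gzmb in RefSeq order, treated (red) left of saline (dark), with exact 95% counting intervals; crosses mark genes with no row under that symbol. The 6 genes with a row differ in direction, with Mcpt1 at 249 against 115 and Mcpt8l3 at 0 against 21.7.

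Genes next to the other members had values within 2-fold or no row. Gyg1, which primes glycogen synthesis and neighbours Cpa3, had a normalised count of 467 in treated cells and 337 in saline cells, a log2 fold of 0.47 (interval 0.24 to 0.69), below that of Cpa3. Next to Hdc, the transcription factor subunit Gabpb1 was at 0.17 (interval -0.24 to 0.58) and the fatty acid transport protein Slc27a2 at -0.75 (interval -2.41 to 0.56, 6 reads in treated and 20 in saline cells). Pdzd8, beside Slc18a2, was at -0.34 (interval -0.60 to -0.095), close to Slc18a2 itself.

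Among other genes that make, move or break down histamine and related amines, 16 of 29 had a row, and the size rule took 0 as higher and 2 as lower in treated cells. The median of the 16 was -0.057. Over all symbols the size rule took 11.9% as higher and 18.7% as lower, and the median was -0.099. Slc18a1, the second vesicular monoamine transporter, had a normalised count of 41.3 in treated cells (25 reads), against 104 in saline cells (120 reads), a log2 fold of -1.31 (interval -2.02 to -0.70). Pcbd1, which recycles the tetrahydrobiopterin cofactor of amine hydroxylases, had 0 reads in treated cells and 19 in saline cells. Set against 3 treated reads, Pcbd1 was at least 3.33-fold lower in treated cells. The exact interval of its log2 ratio ends at -1.29, which allows a smaller difference.

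The serotonin genes Tph1, Ddc and Slc6a4 were not taken by the size rule, though the intervals of Ddc and Slc6a4 reach past 2-fold. Tph1, the first enzyme of serotonin synthesis, had a normalised count of 2854 in treated cells (1728 reads), against 2439 in saline cells (2812 reads), a log2 fold of 0.23 (interval 0.14 to 0.31). Ddc, the decarboxylase that completes serotonin synthesis, was at -0.77 (interval -1.02 to -0.53), and the plasma membrane serotonin transporter Slc6a4 at -0.92 (interval -1.27 to -0.58). The interval of Hdc overlapped those of Ddc and Slc6a4 but not that of Tph1. The aldehyde dehydrogenase Aldh2 was at -0.23 (interval -0.37 to -0.089). The histamine receptor Hrh4, the only 1 of 4 receptors with a row, was at 0.14 (interval -0.33 to 0.61). Hnmt and Aoc1, the enzymes that break histamine down, had no row.

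**Figure D5:**
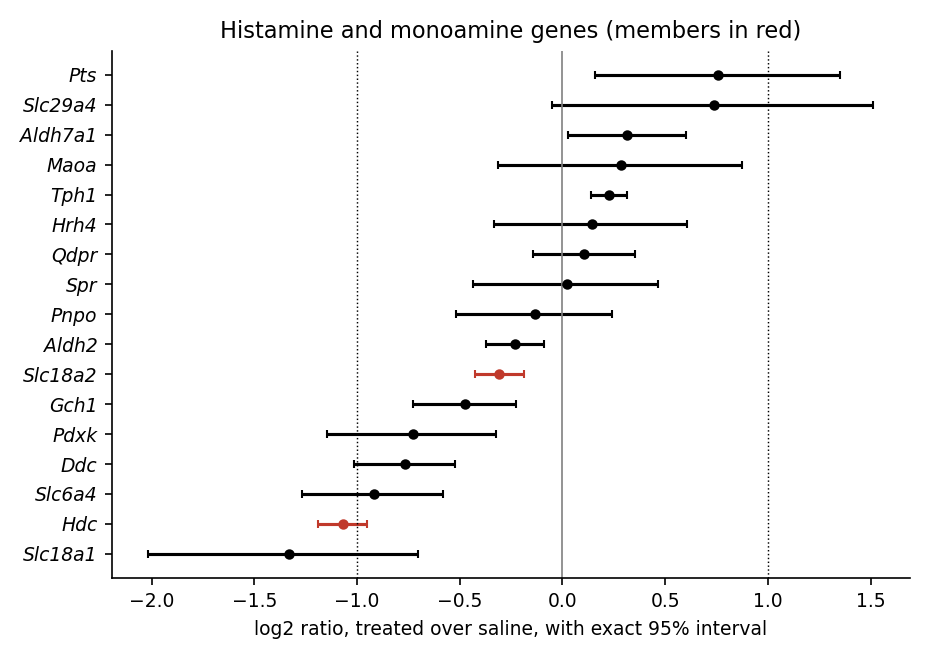
Log2 ratio, treated over saline, with exact 95% intervals for Hdc and Slc18a2 (red) and 15 further histamine and monoamine genes with reads in both libraries (black); dotted lines mark 2-fold. Hdc at -1.07 and Slc18a1 lie past the lower line, and Tph1 at 0.23 lies above 0.

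Genes that process granule proteases, lysosomal cathepsins and protease inhibitors were within 2-fold but for 1. Of 21 symbols 14 had a row, and their median was 0.32, beside -0.099 over all symbols. The size rule took 1 as higher in treated cells, beside 11.9% of all symbols, and 0 as lower, beside 18.7%. The higher one was Ctsl, a lysosomal cysteine protease, with a normalised count of 1146 in treated cells (694 reads), against 432 in saline cells (498 reads), a log2 fold of 1.41 (interval 1.24 to 1.58). Ctsc, the protease that activates chymase and granzyme precursors, had a normalised count of 900 in treated cells and 572 in saline cells, at 0.65 (interval 0.49 to 0.82). The aspartic protease Ctsd was at -0.15 (interval -0.21 to -0.10) and the carboxypeptidase Ctsa at -0.055 (interval -0.15 to 0.039).

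Of 22 transcription factors known to act on mast cell granule genes 21 had a row. Their median was -0.45, beside -0.099 over all symbols. The size rule took 1 of them as higher in treated cells, beside 11.9% of all symbols, and 4 as lower, beside 18.7%. Of these 5, the higher one, Hes1, had 3 reads in treated cells and 0 in saline cells, and Tfeb had 0 reads in treated cells and 10 in saline cells; both differed from the floor by under 2-fold. Zfpm1, a partner of GATA factors, was at -1.39 (interval -2.04 to -0.83), Runx3 at -1.19 (interval -1.53 to -0.87) and Runx1 at -1.04 (interval -1.29 to -0.79). Gata2, which drives Hdc and Cpa3 in mouse mast cells, had a normalised count of 6407 in treated cells and 8748 in saline cells, at -0.45 (interval -0.50 to -0.40). Bhlhe40 was at -0.61 (interval -0.73 to -0.50) and Mitf at 0.12 (interval -0.16 to 0.40).

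Markers were read for the identity of the cells. All 10 mast cell and basophil markers had a row, the members Cpa3 and Hdc among them, and their summed normalised count was 26027 in treated cells and 27585 in saline cells. The markers in that sum did not share a direction. The size rule took 1 as higher (Cpa3), beside 11.9% of all symbols, and 2 as lower (Hdc and Il4), beside 18.7%. Il4, the cytokine interleukin 4, had 0 reads in treated cells and 86 in saline cells, at least 15.1-fold lower in treated cells, with an exact interval of the log2 ratio that ends at -3.58. Ms4a2, the beta chain of the IgE receptor, was at 0.79 (interval 0.67 to 0.90). Of 6 macrophage markers 4 had a row, with a sum of 704 in treated cells and 1471 in saline cells, most of it Csf1r. The size rule took 2 as lower (Csf1r and Cd68), beside 18.7% of all symbols. Cd68 had 0 reads in treated cells and 19 in saline cells. Cd14, at -0.033 (interval -0.37 to 0.29), and Adgre1, at -0.13 (interval -0.92 to 0.61), were within 2-fold. Of 7 fibroblast and epithelium markers 4 had a row, with a sum of 325 in treated cells and 232 in saline cells. Most of that sum was Col3a1, at 277 in treated cells and 209 in saline cells, and the 1 marker the size rule took as higher, Pdgfra, had 2 reads in treated cells and 0 in saline cells. Of 10 lymphocyte markers only Nkg7 had a row, at 656 in treated cells and 740 in saline cells. Of 10 neutrophil and eosinophil markers none had a row. The part of these cell types in the differences of the members was not tested. Fewer cells with a transcript cannot be told apart from less of it in each cell.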

How the data were processed

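RNA of 1 treated and 1 saline library was sequenced. The authors' deposited log2 values per transcript were made linear by raising 2 to them and taking off 1. In each library 100% were then whole multiples of 1 step (tolerance 1e-06), which gave read counts and size factors of 0.605 (treated) and 1.15 (saline). STAR 2.5, DESeq 1.22.1, FastQC and Cuffnorm are listed, with no role, in the submitters' processing notes; the sources used here give no genome build, annotation or counting method. The authors' deposited p-values were read as listed; their fold column runs saline over treated. Another 4 columns hold repeats and were left out.

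Values were added up by symbol; 1276 transcripts had no symbol. Exact Clopper-Pearson intervals of each gene's treated share were converted to ratios. No test and no count model was run. Members and lists were chosen with earlier results of these data known. Named were all members, their neighbours in RefSeq order, and per list the 2 largest differences with a normalised count of at least 5 and the 2 highest means. Other list and marker genes (Ddc, Slc6a4, Hrh4, Hnmt, Aoc1, Gzmm, Prss27, Hes1, Runx1, Runx3, Mitf, Il4, Ms4a2, Csf1r, Cd68, Cd14, Adgre1, Col3a1, Pdgfra, Nkg7) and the motifs were chosen after their values were seen. The procedure was tested on simulated data. Alternatives were other pseudocounts, scalings, filters and ways of joining transcripts. Software: Matplotlib 3.10.9, SciPy 1.17.1, pandas 2.3.3, NumPy 2.4.6, Python 3.11.15.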

Additional observations from a re-analysis of the deposited data

How the results depend on the processing

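Over 12 alternatives 175 of 186 recomputed values stayed within the counting interval (lists: the order-statistic interval of the median) or within 1.5 times the count, 11 moved and 0 turned round. Only the folds of Cpa3, Hdc, Mcpt8l3 and the sum of the Mcpt8 copies could be counted as turned round. Counts, list medians and the folds of Slc18a2 and Mcpt8l2 could not. Cpa3 ranged from 1.69 to 1.77, Hdc from -1.14 to -1.04, Slc18a2 from -0.36 to -0.28 and Mcpt8l2 from 0.10 to 0.18. Mcpt8l3, with 0 treated reads, ranged from -7.77 to -2.42. The sum of the Mcpt8 copies ranged from -1.15 to -0.58, the last with the highest transcript of each symbol alone. That value is short of the size rule, and it counts as unmoved because the counting interval of the sum is wide. With a normalised count of at least 50, members lower numbered 1, granule proteases outside the members 1 higher and 0 lower, histamine genes lower 1 and transcription factors higher 0. With an interval wholly beyond 2-fold, members lower numbered 1, where 3.42% of all symbols were lower. With a pseudocount of 5, and with a filter of 5, granule proteases lower numbered 1 and transcription factors higher 0. With the highest transcript alone, transcription factors higher numbered 2. Except for the interval rule, the share of all symbols taken under these changed settings is not given here. Nothing about the members or the lists is therefore read from these counts. Fewer symbols pass the stricter filters by construction, and the cause of the other moves was not tested. Leaving out long non-coding RNA transcripts, or using no filter, changed no value, so these settings add no check. Tryptases had no row, so their sum gave no value. No paired analysis was possible because each group has 1 library. Depth limits Mcpt8l2 and Mcpt8l3, which rest on 27 and 25 reads in all.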
